A study of Bos taurus with 111 samples.

Results

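PTPRC, CD3E, ZAP70 and ARHGAP45 are transcripts of white blood cells, and their levels were followed here in biopsies of bovine skeletal muscle. The 4 genes were taken by identifier (ENSBTAG00000023144, ENSBTAG00000015710, ENSBTAG00000005892 and ENSBTAG00000020772), out of 24616 genes counted. PTPRC encodes CD45, a tyrosine phosphatase on the surface of nucleated blood cells that sets the threshold for antigen receptor signalling. CD3E is a chain of the CD3 complex that carries the signal of the T cell receptor into the cell, and ZAP70 is the kinase that docks on phosphorylated CD3 chains and passes the signal on. ARHGAP45, also known as HMHA1, is a GTPase-activating protein that is abundant in blood cells and acts on the cytoskeleton. A muscle fibre is not known for making CD45, the CD3 complex or ZAP70, so in muscle tissue these RNAs are usually read as coming from immune cells in the vessels or between the fibres. In bulk tissue, fewer cells of a type and less RNA per cell cannot be told apart.

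Biopsies came from Charolais (CH) and Holstein-Friesian (HF) steers in 3 dietary phases, a high concentrate growing phase (H1), a zero-grazed grass phase (ZG) and a high concentrate finishing phase (H2). Residual feed intake (RFI) is the intake of a steer beyond that predicted from its weight and growth, so L-RFI steers ate less than predicted and H-RFI steers more. Mean age at the start of the first phase was 283 d in CH and 306 d in HF. Each phase lasted 70 d, with gaps between the phases, so steers were older in each later phase. RFI was ranked anew in each phase and within breed, and a steer could be H-RFI in one phase and L-RFI in another.

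Of 111 libraries, 104 were used, from 77 of 83 steers. CH-H1 held 10 H-RFI and 8 L-RFI libraries, CH-ZG held 8 and 9, and CH-H2 held 7 and 7. HF-H1 held 11 H-RFI and 9 L-RFI libraries, HF-ZG held 10 and 9, and HF-H2 held 8 and 8. Gene counts per library ran from 2201765 to 52552057 with a median of 15852125. A count of 3 then stood for 1.36 CPM (the count of a gene per 1000000 gene counts of its library) in the shallowest library, 0.189 CPM at the median and 0.0571 CPM in the deepest. Left out were 6 libraries under 1000000 counts and the CH-ZG H-RFI library of steer 571. Of the 10 muscle markers listed, 4 could be paired with an identifier (MYH4, CSRP3, MYL6B and METTL21C), and their summed level ran from 36.6 to 4899 CPM.

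All 4 transcripts were scarce in most biopsies and abundant in a few. PTPRC ran from 0.108 CPM through a median of 1.89 CPM to 50.5 CPM over the 104 libraries. CD3E ran from 0 through 1.45 to 18.4 CPM, ZAP70 from 0 through 0.872 to 18.3 CPM and ARHGAP45 from 0 through 0.900 to 15.3 CPM. At least 1 CPM was found in 68 libraries for PTPRC, 69 for CD3E, 47 for ZAP70 and 49 for ARHGAP45. Fewer than 3 reads were counted in 6, 4, 9 and 11 libraries for the genes in the same order, and there the level was not measurable at this depth.

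PTPRC, the general leukocyte phosphatase, was highest by median in the HF steers of H1 and the H-RFI HF steers of ZG. In CH-H1 the lowest, median and highest PTPRC levels were 0.763, 2.12 and 6.67 CPM in H-RFI and 0.486, 1.25 and 6.78 CPM in L-RFI steers. The same values were 0.321, 0.740 and 14.8 CPM in H-RFI and 0.156, 0.385 and 22.8 CPM in L-RFI steers of CH-ZG. In CH-H2 they were 0.299, 1.25 and 5.93 CPM in H-RFI and 0.126, 0.495 and 20.4 CPM in L-RFI steers. Thus in the later CH phases the L-RFI group held both the lowest and the highest library. Among HF steers, PTPRC levels were 1.48, 5.08 and 12.2 CPM in H-RFI and 0.426, 4.61 and 10.9 CPM in L-RFI steers of H1. They were 0.400, 8.70 and 50.5 CPM in H-RFI and 0.117, 1.94 and 10.1 CPM in L-RFI steers of ZG. In H2 they were 0.108, 0.930 and 45.5 CPM in H-RFI and 0.339, 1.48 and 5.77 CPM in L-RFI steers. From the highest median down the order was HF-ZG H-RFI, HF-H1 H-RFI, HF-H1 L-RFI, CH-H1 H-RFI, HF-ZG L-RFI, HF-H2 L-RFI, CH-H2 H-RFI, CH-H1 L-RFI, HF-H2 H-RFI, CH-ZG H-RFI, CH-H2 L-RFI and CH-ZG L-RFI. The ranges of all 12 groups overlapped, so no neighbours in that order were separated by more than their spread.

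CD3E, the T cell receptor chain, had the narrowest spread of the group medians. In CH the lowest, median and highest CD3E levels were 0.862, 1.51 and 2.61 CPM in H-RFI and 0.288, 1.15 and 3.04 CPM in L-RFI steers of H1. In ZG they were 0, 0.790 and 4.72 CPM in H-RFI and 0.401, 0.981 and 6.66 CPM in L-RFI, and in H2 0.179, 1.09 and 2.77 CPM in H-RFI and 0, 0.754 and 5.29 CPM in L-RFI steers. The CH groups thus shared most of their range in every phase. In HF the levels were 1.26, 1.97 and 4.63 CPM in H-RFI and 1.01, 1.49 and 7.71 CPM in L-RFI steers of H1. They were 0.774, 2.42 and 18.4 CPM in H-RFI and 0.577, 0.937 and 5.92 CPM in L-RFI steers of ZG, and 0.289, 0.914 and 15.5 CPM in H-RFI and 0.169, 1.57 and 3.39 CPM in L-RFI steers of H2. In HF-ZG the H-RFI median was the higher and in HF-H2 the L-RFI median, with overlap in both.

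ZAP70, the kinase recruited by the CD3 chains, was lowest by median in CH-ZG. Its lowest, median and highest levels in CH-H1 were 0.254, 1.12 and 2.74 CPM in H-RFI and 0.305, 0.603 and 1.74 CPM in L-RFI steers. In CH-ZG they were 0.105, 0.233 and 8.49 CPM in H-RFI and 0.151, 0.312 and 6.25 CPM in L-RFI, and in CH-H2 0.120, 0.413 and 2.37 CPM in H-RFI and 0, 0.606 and 4.94 CPM in L-RFI steers. In CH-ZG, ZAP70 passed 1 CPM only in H-RFI steers 1879 (8.49 CPM) and 449 (2.85 CPM) and in L-RFI steer 318 (6.25 CPM). In HF-H1 the levels were 0.742, 2.57 and 4.55 CPM in H-RFI and 0.377, 1.06 and 5.15 CPM in L-RFI steers. In HF-ZG they were 0.601, 2.57 and 18.3 CPM in H-RFI and 0.146, 0.896 and 5.56 CPM in L-RFI, and in HF-H2 0.167, 0.345 and 11.3 CPM in H-RFI and 0.254, 0.738 and 1.68 CPM in L-RFI steers.

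ARHGAP45, the GTPase-activating protein, was lowest by group median in CH-H2 H-RFI and highest in HF-H1 H-RFI. In CH-H1 its lowest, median and highest levels were 0.509, 1.19 and 1.81 CPM in H-RFI and 0.486, 0.804 and 3.19 CPM in L-RFI steers. In CH-ZG they were 0, 0.391 and 6.52 CPM in H-RFI and 0, 0.384 and 5.43 CPM in L-RFI, and in CH-H2 0.0826, 0.343 and 2.77 CPM in H-RFI and 0, 0.513 and 5.70 CPM in L-RFI steers. A level of 0 means that no read was counted, which at these depths does not show that the transcript was absent. In HF-H1 the levels were 0.519, 2.39 and 3.97 CPM in H-RFI and 0, 1.22 and 4.80 CPM in L-RFI steers. In HF-ZG they were 0, 2.01 and 15.3 CPM in H-RFI and 0.234, 0.717 and 5.28 CPM in L-RFI, and in HF-H2 0.144, 0.586 and 8.57 CPM in H-RFI and 0.254, 0.673 and 1.79 CPM in L-RFI steers. For CD3E, ZAP70 and ARHGAP45 too, the ranges of all 12 groups overlapped.

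**Figure D1:**
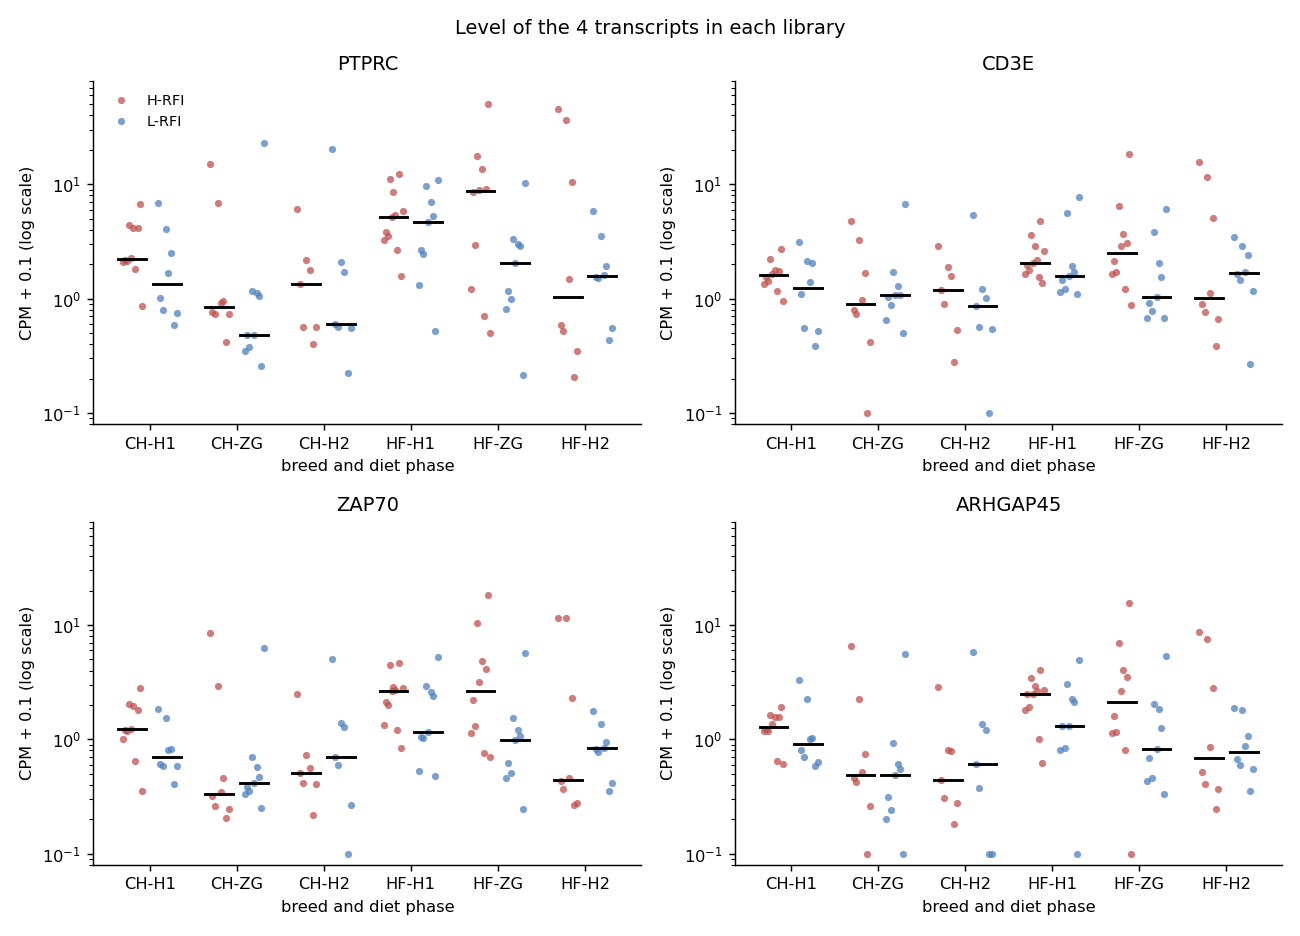
Level of each transcript (CPM + 0.1, log axis) in each of the 104 libraries by breed and dietary phase, with H-RFI steers in red, L-RFI steers in blue and a bar at each group's median. Most libraries lie below 10 CPM for every gene, and single libraries stand apart in several groups, such as 50.5 CPM for PTPRC in HF-ZG H-RFI.

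The highest libraries were largely the same for all 4 genes. Of the 10 highest libraries of each gene, 6 were shared by all 4 genes and 16 belonged to any of them; of the 6 shared libraries, 4 were from HF and 4 from H-RFI steers. On TMM-normalized CPM, 5 libraries were shared by all 4 genes. On plain CPM, the HF-ZG library of H-RFI steer 1639 was the highest for each of the 4 genes, with 50.5 CPM for PTPRC, 18.4 for CD3E, 18.3 for ZAP70 and 15.3 for ARHGAP45, from 2073, 755, 752 and 629 reads. On TMM-normalized CPM, PTPRC and CD3E were highest in HF-H2 H-RFI libraries instead (33.4 against 32.4 for PTPRC and 12.96 against 11.8 for CD3E). The HF-H2 library of the same steer held 36.6, 15.5, 11.3 and 8.57 CPM in the same order, and that of H-RFI steer 5588 in HF-H2 held 45.5, 11.6, 11.3 and 7.38 CPM. Among CH libraries, L-RFI steer 318 in ZG held 22.8, 6.66, 6.25 and 5.43 CPM, L-RFI steer 322 in H2 held 20.4, 5.29, 4.94 and 5.70 CPM, and H-RFI steer 1879 in ZG held 14.8, 4.72, 8.49 and 6.52 CPM. Steer 318 was thus the highest in CH for PTPRC and CD3E, and steer 1879 for ZAP70 and ARHGAP45. Other leukocyte genes were high in the same libraries, and the summed CPM of the 11 listed (such as LCP1, an actin-bundling protein of leukocytes, and CD53, a tetraspanin) was 186 in steer 1639 in ZG and 161 in H2. The HF-H2 library of steer 5588 also held the lowest sum of the 4 named muscle genes of all libraries (36.6 CPM). It held 2990 CPM of plasma protein transcripts, against a median of 163 CPM in HF. The part of these in its leukocyte levels was not tested. Over all libraries the leukocyte sum had a median of 9.30 CPM in CH and 20.9 CPM in HF.

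**Figure D2:**
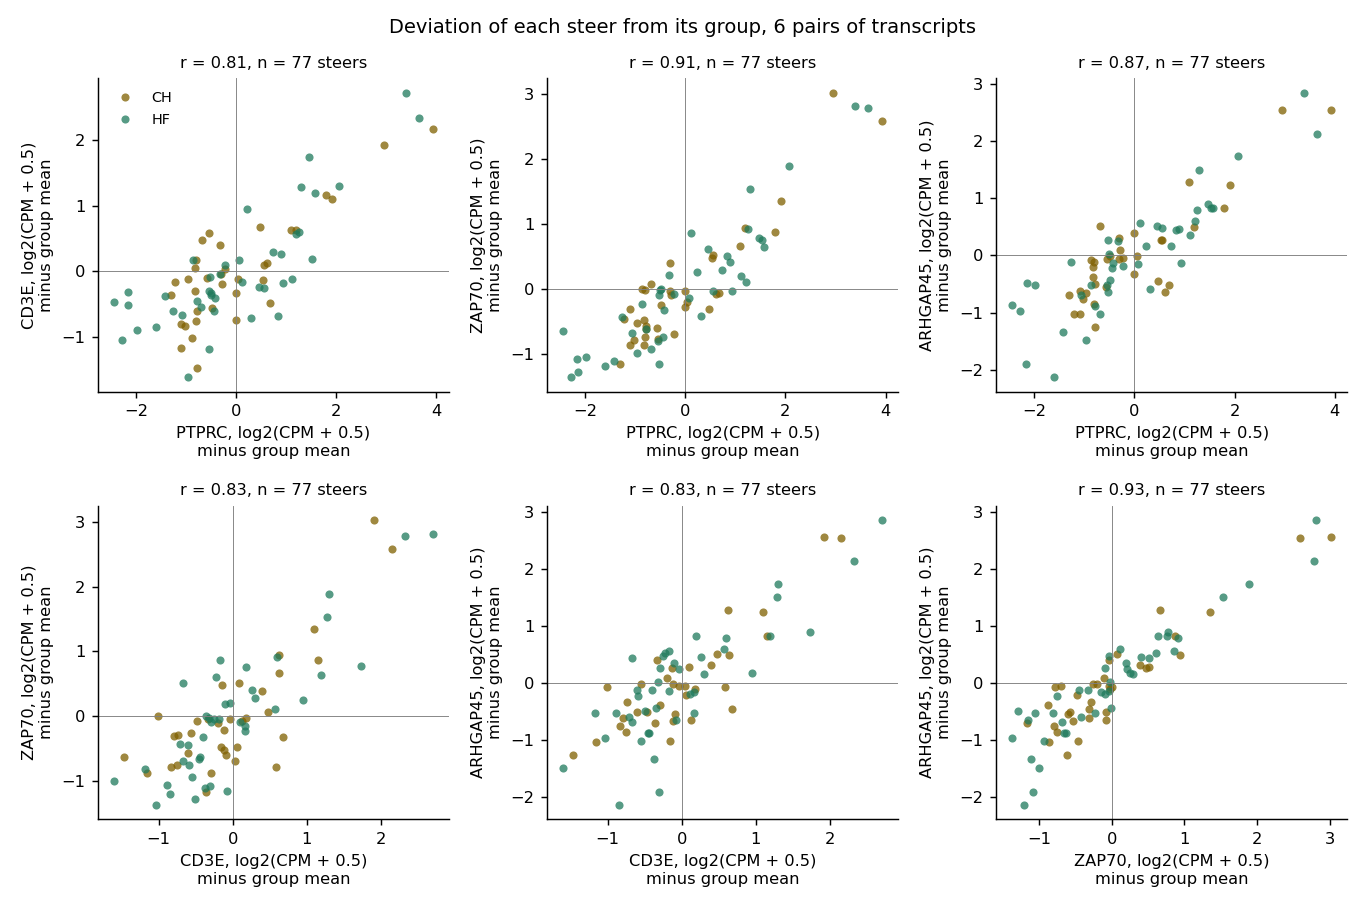
Deviation of each steer from the mean of its group, in log2(CPM + 0.5), for the 6 pairs of transcripts over 77 steers, with CH in brown and HF in green. Points of both breeds rise together in every panel, with Pearson's r from 0.81 (PTPRC and CD3E) to 0.93 (ZAP70 and ARHGAP45).

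Whether the genes moved together between steers of 1 group was tested with the earliest library of each of the 77 steers, each log2(CPM + 0.5) value centred on its group mean. Pearson's r was 0.93 for ZAP70 and ARHGAP45 (Spearman's rho 0.90), 0.91 for PTPRC and ZAP70 (rho 0.85) and 0.87 for PTPRC and ARHGAP45 (rho 0.83). The 3 pairs with CD3E had r of 0.81 with PTPRC (rho 0.71), 0.83 with ZAP70 (rho 0.72) and 0.83 with ARHGAP45 (rho 0.73). Each of the 6 pairs gave a permutation p of 1e-05 for r and for rho, the smallest that 100000 permutations within groups can give. Without the 2 steers farthest from the median, r lay between 0.76 (PTPRC and CD3E) and 0.91 (ZAP70 and ARHGAP45). Within groups, r was positive in 12 of 12 groups for every pair, the lowest being 0.477 for CD3E and ARHGAP45 in CH-H1 H-RFI.

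Genes measured in the same library share its depth and composition, and these transcripts moved with both. The TMM factor, a scaling for composition that ran from 0.5003 to 1.56, had an r of 0.68 with PTPRC, 0.34 with CD3E, 0.60 with ZAP70 and 0.59 with ARHGAP45 over the 77 steers. With the library total, r was 0.22 to 0.36. On TMM-normalized CPM, r between the genes was 0.70 for PTPRC and CD3E, 0.87 for PTPRC and ZAP70, 0.82 for PTPRC and ARHGAP45, 0.77 for CD3E and ZAP70, 0.76 for CD3E and ARHGAP45 and 0.89 for ZAP70 and ARHGAP45. With the library total as a covariate, r on plain CPM ran from 0.79 for PTPRC and CD3E to 0.92 for ZAP70 and ARHGAP45. The part of composition in the plain CPM values was not tested further.

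Among markers of other cells, the genes moved with leukocyte, myeloid and interferon-induced genes, and no relation to plasma protein, adipocyte or muscle genes passed the test. In a family of 32 relations over the same steers, r with the summed leukocyte genes was 0.94 for PTPRC, 0.84 for CD3E, 0.87 for ZAP70 and 0.87 for ARHGAP45. With the 7 myeloid genes (such as LYZ, the lysozyme of phagocytes, and CSF3R, the receptor for the neutrophil growth factor) r was 0.93, 0.74, 0.87 and 0.86 in the same order. With 6 interferon-induced genes r was 0.74, 0.52, 0.66 and 0.63. The adjusted permutation p of these 3 lists was at most 0.000235 for r and 0.000576 for rho. On TMM-normalized CPM, where no p was computed, r with interferon-induced genes was 0.63, 0.39, 0.53 and 0.48. There r with the leukocyte and myeloid genes was 0.69 (CD3E with myeloid genes) or more. With 10 plasma protein genes (such as ALB, the serum albumin) r on plain CPM was between -0.04 and 0.12. It was between 0.08 and 0.21 with adipocyte genes and between 0.04 and 0.15 with the 4 muscle genes. The adjusted permutation p of these lists was 0.19 or more for r and 0.106 or more for rho. None of the 18 listed T cell receptor signalling genes, 4 B cell genes or 3 NK cell genes could be paired with an identifier, so the type of leukocyte was not analysed here. The gene names came from the study's list of genes called on these samples, so the lists are not an independent sample of their cell types.

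Over all 104 libraries, the named genes most like the mean of the 4 transcripts included MYO1F (Spearman's rho 0.901), CD53 (0.888), UBD (0.883), SPN (0.882), LCP1 (0.878), CDC25B (0.871) and CSF3R (0.861), out of 138 named genes with a mean of at least 1 CPM. MYO1F is a myosin of immune cells, SPN is the sialoglycoprotein CD43, UBD is a ubiquitin-like protein induced by interferon and CDC25B is a phosphatase of the cell cycle. On TMM-normalized CPM these genes were again among the 8 highest named genes, led by MYO1F at 0.864. Of 10629 genes, 1748 (16.4%) had a rho above 0.5 on plain CPM and 123 (1.16%) on TMM-normalized CPM. The leukocyte list had a median rho of 0.863 and the plasma protein list of -0.0585, against 0.399 over all genes.

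**Figure D3:**
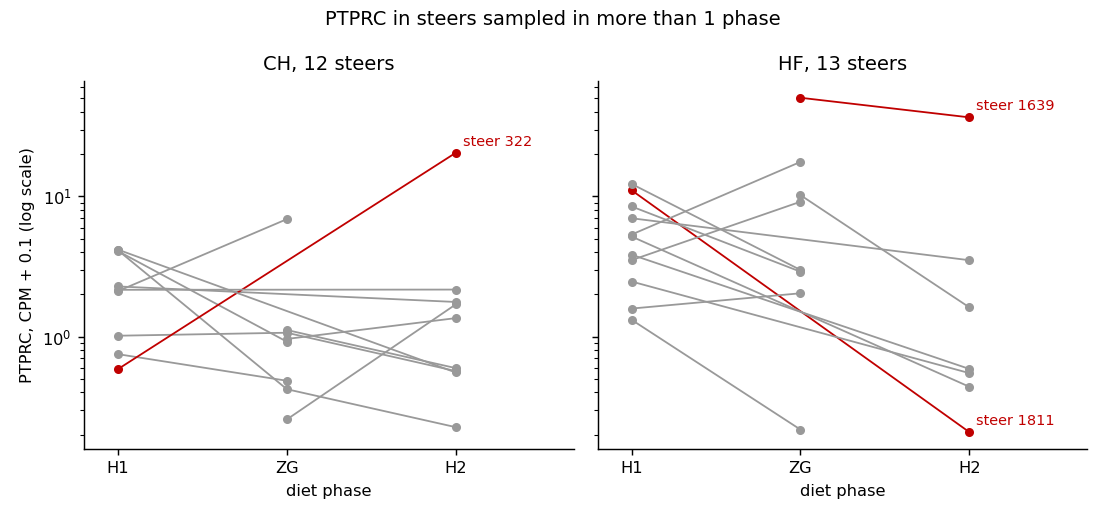
PTPRC (CPM + 0.1, log axis) by dietary phase in the 12 CH and 13 HF steers with more than 1 library, a line joining the libraries of a steer. Steer 1639 stayed high from ZG to H2, steer 322 rose from 0.486 to 20.4 CPM and steer 1811 fell from 10.97 to 0.108 CPM, with these 3 in red.

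In steers sampled in more than 1 phase, no relation between the level in one phase and a later one was shown on plain CPM. Over 25 such steers, the group-centred levels of the 2 earliest libraries had an r of 0.17 for PTPRC (permutation p = 0.408, rho 0.06), 0.27 for CD3E (p = 0.185, rho -0.08), 0.39 for ZAP70 (p = 0.0563, rho 0.16) and 0.15 for ARHGAP45 (p = 0.478, rho -0.00). Without the 2 steers farthest from the median, r was -0.17, -0.12, 0.07 and -0.17, so the positive values rested on those steers. A steer lay on the same side of its group mean both times in 9 of 25 cases for PTPRC, 11 for CD3E, 13 for ZAP70 and 11 for ARHGAP45. Single steers moved in either direction. CH steer 322 held 0.486 CPM of PTPRC in H1 and 20.4 CPM in H2, and HF steer 1811 held 10.97 CPM in H1 and 0.108 CPM in H2. CD3E, ZAP70 and ARHGAP45 in steer 322 moved from 0.416, 0.486 and 0.486 CPM to 5.29, 4.94 and 5.70 CPM.

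**Figure D4:**
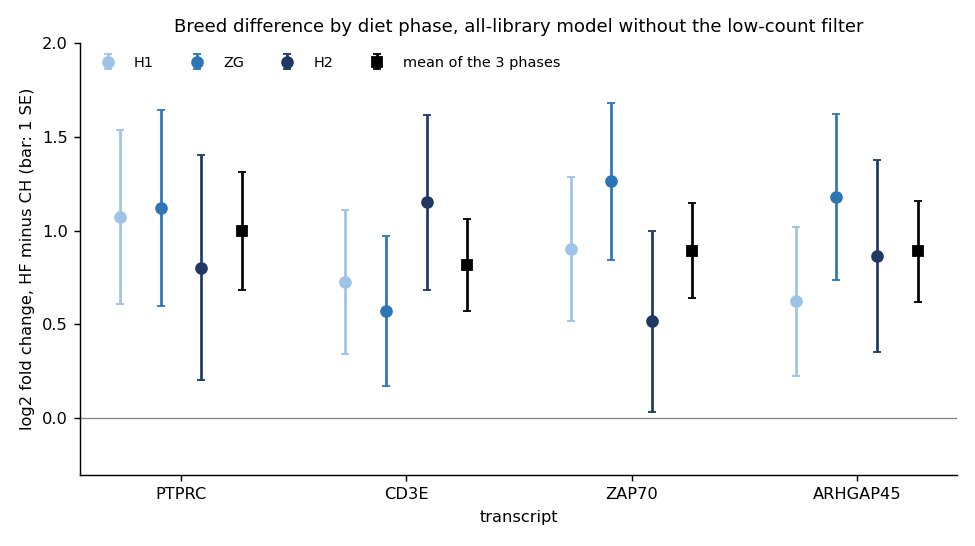
Log2 fold change between breeds (HF minus CH, with a bar of 1 SE) for each transcript in each dietary phase and over the 3 phases, from the model of 104 libraries without the filter on low counts. Every estimate lies above 0, and the means over phases lie between 0.82 and 1.00.

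HF steers had higher levels of all 4 transcripts than CH steers. PTPRC had a median of 1.01 CPM (0.126 to 22.8) in CH and 2.89 CPM (0.108 to 50.5) in HF, and CD3E of 1.06 CPM (0 to 6.66) and 1.601 CPM (0.169 to 18.4). ZAP70 had a median of 0.498 CPM (0 to 8.49) in CH and 1.10 CPM (0.146 to 18.3) in HF, and ARHGAP45 of 0.602 CPM (0 to 6.52) and 1.22 CPM (0 to 15.3). The breeds overlapped over nearly their whole range. In the limma voom model of all libraries, with steer as a random effect, PTPRC was 1.03 higher in HF on the log2 scale (SE 0.32, adjusted p = 0.0410) and CD3E 0.85 higher (SE 0.25, adjusted p = 0.0314). By these thresholds, an adjusted p under 0.1 and a fold change above 1.5, 136 of 10291 genes were called (1.32%), 117 of them higher in HF (1.14%). ZAP70 and ARHGAP45 had too few reads for the filter of 1 CPM in 50% of libraries; fitted without it by limma, ZAP70 was 0.89 higher (SE 0.25, adjusted p = 0.0272) and ARHGAP45 0.89 higher (SE 0.27, adjusted p = 0.0403), among 470 genes called of 19405 (2.42%; higher in HF, 2.01%). PTPRC and CD3E were also called in that fit, at 1.00 (adjusted p = 0.0529) and 0.82 (adjusted p = 0.0409) by limma. The model used a single steer correlation for all genes, below the own estimates of PTPRC, CD3E and ZAP70. The breed SE and adjusted p of these genes may therefore be too small.

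By phase, the mean log2(CPM + 0.5) was higher in HF in 12 of 12 comparisons. For PTPRC the difference was 0.86 in H1 (permutation p = 0.00868), 1.18 in ZG (p = 0.0371) and 0.57 in H2 (p = 0.371), and for CD3E 0.51 (p = 0.0171), 0.66 (p = 0.0631) and 0.69 (p = 0.108) by the same permutation test. For ZAP70 it was 0.67 (p = 0.00628), 0.99 (p = 0.0239) and 0.36 (p = 0.398), and for ARHGAP45 0.49 (p = 0.0374), 0.89 (p = 0.0331) and 0.46 (p = 0.269). In the model, none of the 4 genes was called within a single phase, where 0.262% of genes were called in H1, 1.41% in ZG and 0.204% in H2, or 0.0979%, 0.345% and 0.0618% without the filter. Further, the interaction of breed and phase was not called for any gene (0 of 10291, 0.0%; 462 at an unadjusted p under 0.05), with unadjusted p of 0.822 for PTPRC and 0.758 for CD3E by limma. The means by phase therefore do not show that the breed difference changed between phases.

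With each steer left out in turn, PTPRC stayed called in 77 of 77 refits, from 0.87 (without steer 1639) to 1.13 (without steer 318), and so did CD3E, from 0.72 (without steer 1639) to 0.93. When the 7 excluded libraries were put back, PTPRC was 0.94 higher (adjusted p = 0.155) and CD3E 0.79 higher (adjusted p = 0.115) by limma, and both calls were lost. In the fit without the filter and without steer 1639, limma gave adjusted p of 0.103 for PTPRC, 0.0638 for ZAP70 and 0.0895 for ARHGAP45. Other cell markers moved with breed. In the fit without the filter, all 11 leukocyte genes were higher in HF and 9 were called, with a median of 0.82, and of the 7 myeloid genes 6 were higher and 5 of these called, with a median of 1.08, while PLEK was called lower. The 3 adipocyte genes were all called higher (median 1.34, FABP4 1.61), the 10 plasma protein genes were all higher and none called (median 0.79), and the muscle genes had a median of 0.06, with MYH4, a fast myosin heavy chain, called lower by 1.08. The part of adipose tissue or blood in the biopsies was not tested. PTPRC, CD3E, ZAP70 and ARHGAP45 had been called by the study in HF-ZG. The marker lists held only genes named in the study's list of called genes. These genes were therefore not chosen independently of the HF libraries. The part of that choice in the breed differences was not tested.

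**Figure D5:**
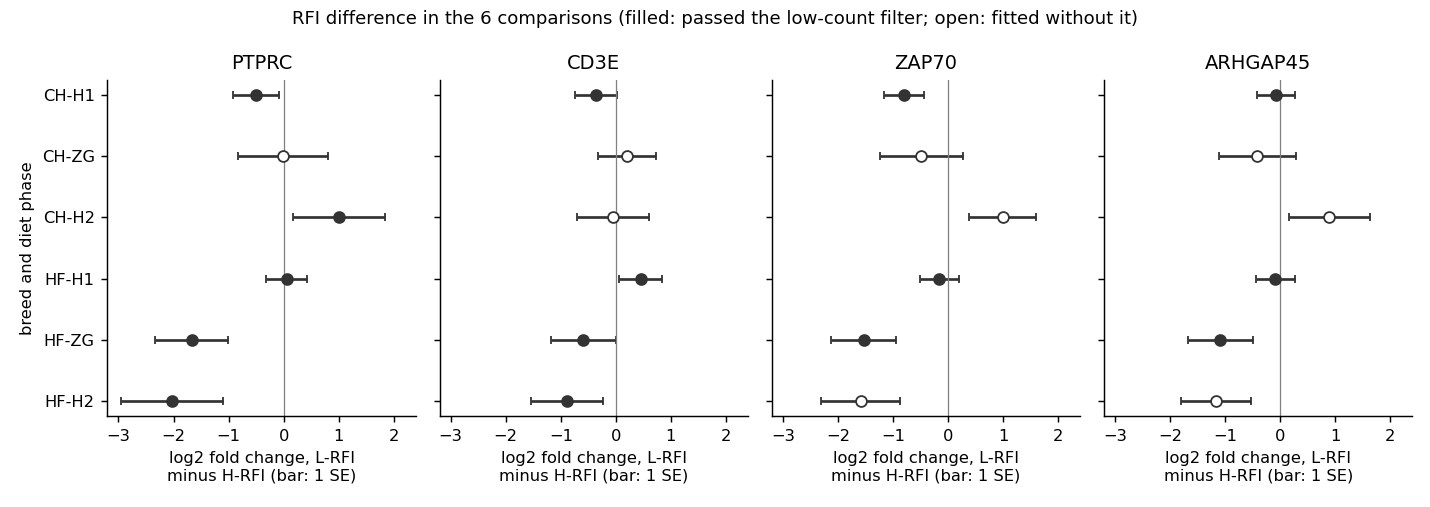
Log2 fold change of L-RFI minus H-RFI steers (points, with a bar of 1 SE) for each transcript in the 6 comparisons, filled where the gene passed the filter on low counts and open where it was fitted without it. The values of HF-ZG and HF-H2 lie to the left for all 4 genes, at -2.03 to -0.59, and those of CH-H2 lie to the right except for CD3E.

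The central question of the design was whether L-RFI and H-RFI steers differed within a breed and phase. No gene was called in any of the 6 comparisons by edgeR's quasi-likelihood test (0.0% of 9823 to 10812 genes), and the 4 transcripts were therefore not called either. At an unadjusted p under 0.05 CH-H1 had 216 genes, CH-ZG had 79 and CH-H2 had 89, while HF-H1 had 317, HF-ZG had 1228 and HF-H2 had 72. In HF-ZG, PTPRC was 1.67 lower in L-RFI steers on the log2 scale (log2 fold change -1.67, SE 0.67, adjusted p = 0.381) and ZAP70 gave -1.53 (SE 0.59, adjusted p = 0.381). ARHGAP45 gave -1.09 (SE 0.59) and CD3E -0.59 (SE 0.58). The study had already called all 4 genes lower in L-RFI steers of HF-ZG, so their values there are not independent support. PTPRC and ZAP70 had unadjusted p of 0.0201 and 0.0161 by edgeR, and 705 of 10571 genes (6.67%) were lower in L-RFI at an unadjusted p under 0.05 in that comparison. In HF-H2, PTPRC gave -2.03 (SE 0.93, unadjusted p = 0.0434 by edgeR) and CD3E -0.88 (SE 0.66), against 27 of 9936 genes (0.272%) lower at that p. ZAP70 and ARHGAP45, fitted without the filter, gave -1.59 (SE 0.72) and -1.16 (SE 0.64) in HF-H2. The HF-H2 medians of PTPRC, CD3E, ZAP70 and ARHGAP45 were all higher in L-RFI steers, opposite to these fold changes, and voom with sample quality weights gave -1.16 for PTPRC (unadjusted p = 0.172 by limma).

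In the other 4 comparisons the values were smaller or of mixed sign. In CH-H1, ZAP70 gave -0.80 (SE 0.36, unadjusted p = 0.0351 by edgeR; 127 of 10596 genes, 1.2%, were lower at an unadjusted p under 0.05), PTPRC -0.50, CD3E -0.36 and ARHGAP45 -0.08. In HF-H1 the genes gave 0.05 for PTPRC, 0.45 for CD3E, -0.16 for ZAP70 and -0.09 for ARHGAP45, with SE of 0.35 to 0.39. PTPRC gave 1.00 in CH-H2 (SE 0.84), where DESeq2 gave -0.78, and none of the 4 genes passed the filter in CH-ZG. Without the filter, CH-ZG gave -0.01 for PTPRC, 0.20 for CD3E, -0.48 for ZAP70 and -0.42 for ARHGAP45, and CH-H2 gave -0.04 for CD3E, 0.99 for ZAP70 and 0.89 for ARHGAP45. A test of whether the RFI effect differed between the 6 comparisons called 0 of 10291 genes (0.0%; 146 at an unadjusted p under 0.05), with unadjusted p of 0.0629 for PTPRC and 0.501 for CD3E, and without the filter (0.0206% called) 0.0958 for ZAP70 and 0.297 for ARHGAP45. HF-ZG and HF-H2 share steers, among them steer 1639 in H-RFI both times, so their values are not independent.

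The exact permutation test on log2(CPM + 0.5) was run for each of the 4 genes in each of the 6 comparisons, 24 tests in all. ZAP70 in HF-ZG alone had a two-sided exact p under 0.05, at a difference of -1.24 (p = 0.0364), and on TMM-normalized CPM it was -0.995 (exact p = 0.0501). In HF-ZG, PTPRC differed by -1.37 (exact p = 0.0799), ARHGAP45 by -0.84 (exact p = 0.155) and CD3E by -0.77 (exact p = 0.123). H-RFI steer 1639 carried part of these values. Without that library the edgeR log2 fold change in HF-ZG was -1.07 for PTPRC, -1.07 for ZAP70, -0.58 for ARHGAP45 and -0.03 for CD3E. In HF-H2, PTPRC was -1.60 without steer 1639 and -1.52 without steer 5588, and CD3E was -0.40 without steer 1639.

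No gene of the marker lists was called in HF-ZG. The 8 leukocyte genes that passed the filter were all lower in L-RFI steers (median -0.99, 3 at an unadjusted p under 0.05), as were 5 of 6 myeloid genes (median -0.999) and 5 of 6 interferon-induced genes (median -0.98). The lists could hold only genes named in the study's list of called genes, which includes calls in HF-ZG. Their direction in HF-ZG is therefore not independent support. The 10 plasma protein genes were all lower, with a median of -2.32 and 8 at an unadjusted p under 0.05, while the adipocyte genes had a median of 0.12. The median of all genes was -0.03, and with library totals in place of TMM it was -0.30. Summed plasma protein levels had similar medians in HF-ZG, 178 CPM in H-RFI and 163 CPM in L-RFI steers. They reached 15938 CPM in H-RFI and 522 CPM in L-RFI steers of HF-ZG, and in steer 1639 they were 102 CPM. The source of these transcripts was not tested, and neither was the part of blood in the biopsies. Voom with sample quality weights called all 4 genes in HF-ZG, with limma adjusted p of 0.0244 for PTPRC, 0.0443 for CD3E, 0.0270 for ZAP70 and 0.0609 for ARHGAP45, among 1742 genes called of 10571 (16.5%).

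Over the 6 comparisons together, the limma model gave -0.62 for PTPRC (SE 0.31, adjusted p = 0.592) and -0.30 for CD3E (SE 0.25, adjusted p = 0.603), with 0 of 10291 genes called (0.0%; 666 at an unadjusted p under 0.05). Without the filter, ZAP70 gave -0.41 (SE 0.25) and ARHGAP45 -0.33 (SE 0.26), again with 0.0% of genes called, and the 11 leukocyte genes all lay below 0 with a median of -0.35 and no call. So did the 3 adipocyte genes (median -0.86), the 6 interferon-induced genes (-0.37) and 6 of 7 myeloid genes (-0.38). The 10 plasma protein genes (median 0.13) and 3 of 4 muscle genes (median 0.09) lay above 0. The 6 comparisons include HF-ZG, where the study had already called PTPRC, CD3E, ZAP70 and ARHGAP45 lower in L-RFI steers. Their values over the comparisons together are therefore not independent support. The leukocyte genes, too, were named only through the study's list of called genes.

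Between phases, PTPRC was lower in H2 than in H1. Its median was 2.04 CPM in CH-H1 and 0.875 CPM in CH-H2, and 4.84 CPM in HF-H1 and 1.43 CPM in HF-H2. The limma log2 fold change was -0.81 (SE 0.38, adjusted p = 0.0957), among 1154 of 10291 genes called (11.2%), of which 1043 were lower in H2 (10.1%). The call did not hold widely: it stayed in 37 of 77 refits that each left out 1 steer, from -1.02 (without steer 322) to -0.66 (without steer 307), and edgeR without a block for steer gave 0.033. It was lost without the replicate block for steer (-0.79, adjusted p = 0.116 by limma), without the filter (adjusted p = 0.130) and with all libraries (adjusted p = 0.248). CD3E gave -0.13 (SE 0.30), and without the filter ZAP70 gave -0.52 (adjusted p = 0.192) and ARHGAP45 -0.65 (adjusted p = 0.140) by limma. In the fit without the filter, where 2142 of 19405 genes were called and 1661 of these were lower in H2, all 11 leukocyte genes were lower and 3 called, with a median of -0.51, and the 3 adipocyte genes were called higher, with a median of 1.82. Between H1 and ZG, PTPRC gave -0.43 (SE 0.35) and CD3E 0.14 (SE 0.28), and between ZG and H2 -0.37 (SE 0.40) and -0.27 (SE 0.31). Neither gene was called in these contrasts, where 2.52% and 2.89% of genes were. Steers were older in each later phase, so phase and age cannot be told apart.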

How the data were processed

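Muscle RNA was sequenced from 111 biopsies with a stranded mRNA kit. The authors trimmed the reads and counted them per gene with STAR 2.5.1, and the deposited values are raw read counts; the labels name the build UMD3.1 and the study's methods name a later one, and the labels also list FastQC 0.11.5, HTSeq and DESeq2. The reverse-strand count column was used, which held a median of 99.0% of stranded gene counts. Groups came from the labels' breed, diet and RFI entries, and steers from sample titles. CPM is the count per 1000000 gene counts. Names were paired with identifiers only through the study's own table, for 151 genes. On RefSeq's map, CD3E lies next to CD3D and CD3G, and PTPRC and ARHGAP45 are overlapped by 2 and 1 other entries; the strand of the counts was used.

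RFI comparisons used edgeR 4.0.16 (quasi-likelihood, TMM, at least 1 CPM in 50% of samples, Benjamini-Hochberg adjusted p under 0.1 and fold change above 1.5). The SE given with edgeR values was derived from the test. It is the absolute log2 fold change divided by the square root of the quasi-likelihood F statistic. Breed, phase and common RFI effects used limma 3.58.1 voom with steer as a random effect (duplicateCorrelation, correlation 0.0966). Exact permutation tests were two-sided. Alternatives included DESeq2 1.42.0, other scalings, filters and left-out libraries. Scripts were tested on simulated data. The genes and lists were chosen with earlier results of these data known. The named genes were the 4 transcripts, the marker lists and the 8 named genes of highest rho, of which 1 is not reported here. Intervals of counting error are not given beside group values, whose spread between steers is larger. No sequence of these genes was used here.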

Additional observations from a re-analysis of the deposited data

Results flagged for a closer look

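Single steers stood apart in 6 of the 11 groups of 4 to 10 libraries. With each of the 4 genes taken in each group, 20 of 44 cases had a highest library whose gap to the next was above Dixon's 95% critical value. Chance gives about 1 in 20 for independent, normally distributed values, a rate that does not apply to plain CPM, which was skewed to high values, or to genes that moved together. In each group the library belonged to the same steer for every gene concerned. In HF-ZG H-RFI this was steer 1639, with 50.5 CPM of PTPRC, 18.4 of CD3E and 15.3 of ARHGAP45. In HF-ZG L-RFI it was steer 5612, with 10.1 CPM of PTPRC, 5.56 of ZAP70 and 5.28 of ARHGAP45. In CH-ZG H-RFI, steer 1879 held 14.8 CPM of PTPRC, 8.49 of ZAP70 and 6.52 of ARHGAP45, and in CH-ZG L-RFI steer 318 held 22.8 CPM of PTPRC, 6.66 of CD3E, 6.25 of ZAP70 and 5.43 of ARHGAP45. In CH-H2 H-RFI, steer 367 held 5.93 CPM of PTPRC, 2.37 of ZAP70 and 2.77 of ARHGAP45, and in CH-H2 L-RFI steer 322 held 20.4 CPM of PTPRC, 5.29 of CD3E, 4.94 of ZAP70 and 5.70 of ARHGAP45. Both of these groups held 7 libraries, and the RFI difference of PTPRC in CH-H2 changed sign with single libraries left out.

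The CH-ZG H-RFI library of steer 571, left out of every comparison by the rule that chose the data, held 70.1 CPM of PTPRC (969 reads of 13818659), above the highest library used. It held 12.9 CPM of CD3E, 6.30 of ZAP70 and 3.11 of ARHGAP45, from 178, 87 and 43 reads.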

How the results depend on the processing

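Each result was recomputed under other settings, 1 choice at a time, except that edgeR in place of limma for breed, phase and common RFI effects also dropped the block for steer; refits without 1 steer, the permutation test by breed and the test between comparisons were chosen after seeing the data. All 36 alternatives for the co-variation kept its direction. A permutation p was computed again only on TMM-normalized CPM and with the latest phase of each steer. For r it was 1e-05 in every pair in both. In the model of all libraries, ZAP70 and ARHGAP45 were fitted only without the filter on low levels. Depth limits the libraries with fewer than 3 reads of a gene, 4 for CD3E to 11 for ARHGAP45.

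The number of genes called moved as follows. In CH-H1 the edgeR exact test and DESeq2 each called 2, in CH-H2 they called 1 and 2, and in HF-ZG DESeq2 called 1 and voom with quality weights 1742, against 0 by the quasi-likelihood test. For breed edgeR without the block called 237, the fit without the filter 470 and all libraries 74, against 136. For H2 minus H1 these were 625, 2142 and 742, against 1154. Without the replicate block for steer, 2 genes were called for the common RFI effect, against 0, and PTPRC between H2 and H1 gave -0.79 (adjusted p = 0.116 by limma). The block changed no other call of PTPRC or CD3E. For breed, phase and common RFI effects, ZAP70 and ARHGAP45 were fitted only with the block.

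With all libraries included, the breed difference was 0.94 for PTPRC and 0.79 for CD3E, not called. Between H2 and H1, PTPRC gave -0.79 without the filter, -0.69 with all libraries and 0.033 by edgeR without the block, none called, and -1.02 to -0.66 with a steer left out. CD3E gave 0.14 by edgeR without the block and -0.27 to 0.022 with a steer left out, and ARHGAP45 without steer 1639 gave -0.73, called. By edgeR without the block, PTPRC also turned in ZG minus H1 (0.23 over both breeds, 0.42 in CH, 0.043 in HF), in H2 minus ZG in HF (0.025) and in H2 minus H1 in HF (0.068), and CD3E in H2 minus ZG in HF turned to 0.11, or to 0.018 without the filter. The cause was not tested.

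In the RFI comparisons, PTPRC turned in CH-H2 by DESeq2 (-0.78) and in HF-H1 with voom weights (-0.11) and library totals (-0.19), and CD3E in HF-H1 with voom weights (-0.16). On log2(CPM) means, PTPRC in CH-H2 turned with a pseudocount of 0.1 (-0.054) and CD3E in HF-H1 with TMM (0.10). With 1 library left out in turn, the difference ran from -0.53 to 0.376 for PTPRC in CH-H2; for CD3E the CH-ZG values ran from -0.14 to 0.372, the CH-H2 values from -0.547 to 0.042 and the HF-H2 values from -0.594 to 0.026; for ZAP70 the CH-ZG values ran from -0.509 to 0.25 and the CH-H2 values from -0.0091 to 0.585; and for ARHGAP45 the CH-ZG values ran from -0.613 to 0.072 and the CH-H2 values from -0.16 to 0.513. With HF-ZG libraries left out in turn, PTPRC ran from -2.14 to -1.07, CD3E from -1.33 to -0.03, ZAP70 from -2.20 to -1.07 and ARHGAP45 from -1.61 to -0.58, with no gene called. ZAP70 in HF-ZG on TMM-normalized CPM gave -0.995 (exact p = 0.0501). By breed, a pseudocount of 0.1 gave 0.91 for CD3E in ZG (permutation p = 0.0479) and 0.55 for ARHGAP45 in H1 (permutation p = 0.108). The repeat correlation of ZAP70 on TMM-normalized CPM was 0.44 (permutation p = 0.0278).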
